A study of Mus musculus with 4 samples.

Results

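The genes described here make, sense, move and store cholesterol. They were given as a list of 29 mouse gene symbols, and all 29 were found by name among the 25413 genes of the deposited count table. RNA was sequenced from EpH4, a wild-type mouse mammary epithelial cell line kept in 2D culture. One group, with 2 libraries, had received PM2.5 (particulate matter small enough to reach the deep lung), and the other, also with 2 libraries, was the control. No dose or exposure time is in the labels, which put all 4 libraries in the same batch. Whether the libraries of a group are separate cultures is not stated there, so p-values measure only the spread between these libraries, which may be technical.

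Cholesterol is built from acetyl-CoA through mevalonate to farnesyl diphosphate, which is then joined into squalene, closed into lanosterol and trimmed to cholesterol. When membranes of the endoplasmic reticulum run low in sterol, the escort protein SCAP carries the transcription factor SREBP2 to the Golgi, where it is cut and released to switch on most enzymes of the route. When sterol is plentiful, INSIG proteins hold SCAP back, and oxysterols activate the liver X receptors (LXR), which turn on export genes and the ubiquitin ligase MYLIP, also called IDOL, which sends lipoprotein receptors for degradation. Cholesterol taken up in lipoproteins leaves the lysosome through NPC2 and NPC1, travels between membranes on carriers such as STARD4, and is esterified for storage by SOAT1.

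Total counts were 20232277 and 18548478 in the PM2.5 libraries and 19562930 and 26206329 in the control libraries. Of 16 epithelial marker genes, 14 averaged below 1 CPM (counts scaled to library size), and 6 of them, Epcam, Krt18, Krt19, Krt5, Cldn4 and Esrp1, were at 0 in all 4 libraries. Only the junction gene Tjp1 and the basal keratin gene Krt14 averaged more, so most markers that define an epithelial cell were at or near 0. Of the 3 epithelial markers tested, Tjp1 and Grhl2 were higher, and Krt14 was lower, with 20.8 and 18.6 CPM in PM2.5, against 53.1 and 51.0 CPM in control. The epithelial list summed to 239.5 and 253.7 CPM in PM2.5 and 249.3 and 245.3 CPM in control. Of 12 mesenchymal markers 11 were tested, and their summed level over the list was 6956 and 7541 CPM in PM2.5 libraries and 9611 and 10250 CPM in control libraries, with 7 lower and 2 higher, where 20.4% of all 12478 genes tested were called lower and 19.2% higher. The adipocyte markers summed to 5.91 and 4.32 CPM in PM2.5 and 0.526 and 0.698 CPM in control, nearly all of it from Fabp4, and Adipoq was at 0 in every library. Immune markers summed to 61.8 and 68.7 CPM in PM2.5 and 59.9 and 70.2 CPM in control, mostly from Cd14, with Itgam and Cd3e at 0 in every library. Of the 8, 2 were tested, and Cd14 did not pass. Cd68 was higher, with 9.02 and 10.3 CPM in PM2.5, against 3.63 and 4.23 CPM in control. Endothelial markers summed to 0.436 and 0.843 CPM in PM2.5 and 1.05 and 0.504 CPM in control. The part of these marker differences in the results was not tested.

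PM2.5 libraries held more transcript of Mylip, Insig2, Sc5d, Pmvk, Fdft1 and Srebf2 and less of Nr1h3, Stard4, Nsdhl, Mvd and Acat2, while the other 18 cholesterol genes did not pass the test. Of these 11, only the calls on Mylip, Sc5d, Stard4 and Nsdhl held under every alternative that gave a fold change, as described below. All 29 passed the filter on low counts, the least abundant being Nr1h3 with 102 counts in the PM2.5 libraries and 179 in the control libraries together. With edgeR's quasi-likelihood test and an adjusted p below 0.05, 6 were higher and 5 lower, or 11 of 29. Among all 12478 genes tested, 39.6% were called, 19.2% higher and 20.4% lower, so the 37.9% called among the cholesterol genes was close to the share of genes at large. Their median log2 fold change was 0.031, beside 0.0062 over all genes tested, and their median size of change was 0.14, beside 0.21. Genes at large were not matched to the cholesterol genes for expression level, so the sizes of change are not compared like for like. The largest change was that of Nr1h3, which was 1.55-fold lower, and it was the only one of the 11 over 1.5-fold. Among all genes, 11.7% were called with a change over 1.5-fold. When edgeR tested for changes beyond 1.5-fold, 0 of the 29 passed, against 4.11% of all genes; the ordinary test at an unadjusted p below 0.05 passed 12 of the 29, against 48.1% of all genes. In bulk RNA, fewer cells of a type and less RNA per cell cannot be told apart.

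**Figure D1:**
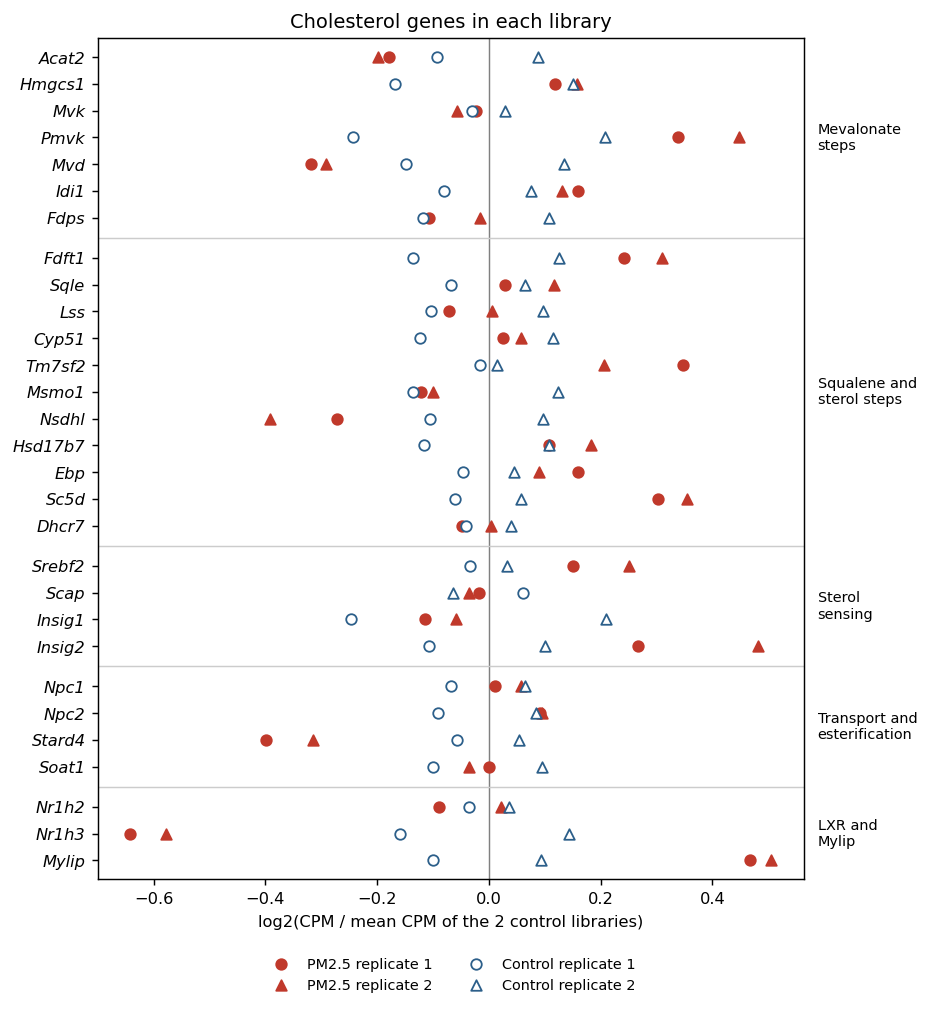
CPM of each cholesterol gene in each library, as the log2 ratio to the mean of the 2 control libraries, in rows by role. Filled symbols are the PM2.5 libraries and open symbols the control libraries, with circles for replicate 1 and triangles for replicate 2; Mylip and Insig2 lie to the right of both controls, Nr1h3 and Stard4 to the left, and the open triangle lies right of the open circle in 28 of 29 rows.

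The control libraries differed from each other in these genes. In 28 of 29 cholesterol genes, and in all 18 synthesis enzymes, CPM was higher in control replicate 2 than in control replicate 1, while over all genes tested this held for 50.7%. The median gap between the controls, as the log2 ratio of replicate 2 over replicate 1, was 0.19 for the cholesterol genes and 0.0028 for all genes. Scap was the exception, with 123 CPM in replicate 1 and 113 CPM in replicate 2. The PM2.5 libraries lay closer together, with a median gap of 0.048 in the cholesterol genes. In 17 of 29 cholesterol genes the PM2.5 change was smaller in size than the gap between the controls, against 29.7% of all genes, and in 8 of 29 both PM2.5 libraries lay between the control libraries, against 7.25%. The 2 groups did not overlap in 16 of 29 genes, 11 higher and 5 lower in PM2.5, while 71.0% of all genes tested did not overlap, 35.9% higher and 35.1% lower.

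**Figure D2:**
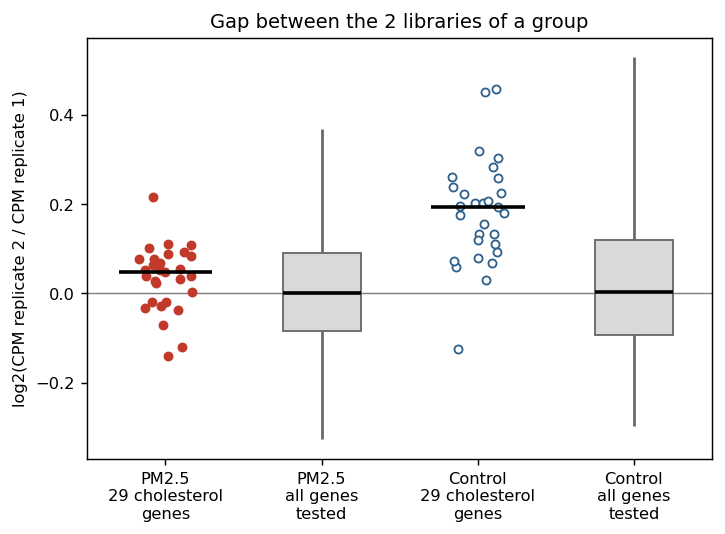
Log2 ratio of replicate 2 over replicate 1 within each group. Points are the 29 cholesterol genes with their median as a bar, and grey boxes give the quartiles of all 12478 genes tested, with the 5th and 95th percentiles as whiskers. The control points centre on 0.19, the PM2.5 points on 0.048 and both boxes near 0.

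Leaving out control replicate 2 moved the median of the list beyond its spread between replicates (SD 0.080), and leaving out control replicate 1 did not. Without control replicate 1, 3 cholesterol genes were higher and 8 lower, with a median log2 fold change of -0.034, while 32.7% of all genes were called, 15.1% higher and 17.6% lower. Without control replicate 2, 10 were higher and 2 lower, with a median of 0.13, while 37.7% of all genes were called, 17.7% higher and 20.1% lower. Without PM2.5 replicate 1, 6 were higher and 2 lower, against 28.1% of all genes called, 13.7% higher and 14.3% lower. Without PM2.5 replicate 2, 2 were higher and 3 lower, against 24.3% of all genes, 11.7% higher and 12.6% lower. Insig1 had the widest gap between the controls, at 0.46 on the log2 scale. INSIG1 retains SCAP in the endoplasmic reticulum, and its gene is itself a target of SREBP. It had 167 and 174 CPM in the PM2.5 libraries, against 152 and 209 CPM in the control libraries, so both PM2.5 values lay between the controls. Its log2 fold change was -0.090 (95% interval -0.34 to 0.16, adjusted p = 0.56). Without control replicate 1 it was -0.30 (adjusted p = 0.0019), and without control replicate 2 it was 0.15 (adjusted p = 0.0765). Hmgcs1, the synthase that makes HMG-CoA, had 352 and 361 CPM in PM2.5, against 288 and 360 CPM in control, and its log2 fold change was 0.30 (adjusted p = 0.0011) without control replicate 2 and -0.017 (adjusted p = 0.85) without control replicate 1. Leaving out control replicate 1 also put Fdps and Msmo1 past the threshold on the lower side. Leaving out control replicate 2 put Idi1, Hsd17b7 and Npc2 past it on the higher side.

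Per gene length, the most abundant of the 29 was Fdps, farnesyl diphosphate synthase, at 107 ± 5.19 RPKM in PM2.5 and 110 ± 12.3 RPKM in control (SD, n = 2 each; RPKM are reads scaled to gene length and library size). Next came Hmgcs1, at 82.6 ± 1.83 RPKM in PM2.5 and 73.9 ± 11.6 RPKM in control, and the squalene epoxidase gene Sqle, at 70.6 ± 3.22 RPKM in PM2.5 and 66.1 ± 4.42 RPKM in control. Hmgcs1 stood above Sqle in each library, but their control means lay closer together than the SD of Hmgcs1 in control. The lowest levels were those of Tm7sf2, a sterol C14 reductase, at 2.56 ± 0.169 RPKM in PM2.5 and 2.08 ± 0.0339 RPKM in control, and of Nr1h3, at 1.01 ± 0.0348 RPKM in PM2.5 and 1.52 ± 0.227 RPKM in control. Its sister receptor Nr1h2 stood at 21.3 ± 1.22 RPKM in PM2.5 and 21.5 ± 0.791 RPKM in control. Above 10 RPKM in every library were 22 of the 29 genes.

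**Figure D3:**
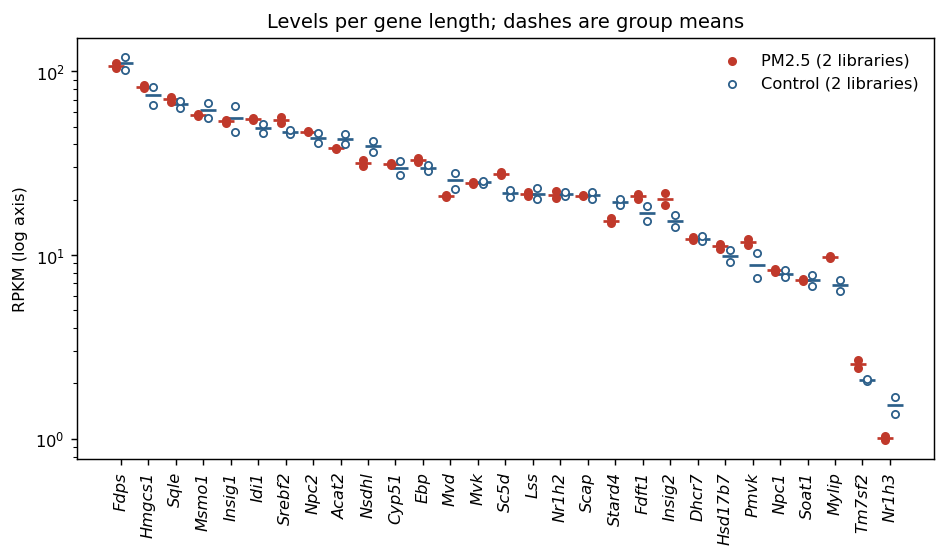
RPKM of each cholesterol gene in each library on a log axis, ordered by the control mean. Filled points are PM2.5 and open points control libraries, and dashes are group means; levels run from about 110 RPKM for Fdps in control to 1.01 RPKM for Nr1h3 in PM2.5.

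Among the 7 mevalonate steps, Pmvk was higher and Mvd and Acat2 lower. Pmvk, phosphomevalonate kinase, had 23.1 and 24.9 CPM in PM2.5, against 15.4 and 21.1 CPM in control, 1.3-fold higher (log2 fold change 0.38, SE 0.13, adjusted p = 0.0423). The groups did not overlap, but the controls lay 0.45 apart on the log2 scale, and without control replicate 1 the log2 fold change was 0.18 (adjusted p = 0.21). The call also ended without PM2.5 replicate 2 (adjusted p = 0.138), and without control replicate 2 the log2 fold change was 0.63. In all it ended under 8 of 17 alternatives, among them DESeq2 (adjusted p = 0.0671) and the comparison with neighbouring genes (0.32, adjusted p = 0.0847). Another was the total gene reads, a larger count deposited for each library (0.30, adjusted p = 0.117). Mvd, mevalonate diphosphate decarboxylase, had 45.7 and 46.5 CPM in PM2.5, against 51.4 and 62.5 CPM in control, 1.24-fold lower (log2 fold change -0.31, SE 0.09, adjusted p = 0.0198). It lies on chromosome 8 (123160340 to 123170161, minus strand, GRCm39), where up to 50 tested genes on each side had a median log2 fold change of -0.33. Set against these neighbours its log2 fold change was 0.018 (adjusted p = 0.90), and its call also ended without control replicate 2 (-0.16) and with PM2.5 replicate 1 left out (adjusted p = 0.0613).

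Acat2, the cytosolic thiolase that joins acetyl-CoA units, had 113 and 112 CPM in PM2.5, against 120 and 136 CPM in control (log2 fold change -0.19, SE 0.07, adjusted p = 0.0456). The call ended under 11 of 17 alternatives, among them leaving out control replicate 2 (-0.10, adjusted p = 0.25) or either PM2.5 library. Its relative Acat3 had 48 and 66 counts in PM2.5 and 9 and 45 counts in control, few beside the 2121 to 3515 counts of Acat2. Idi1, isopentenyl-diphosphate isomerase, had 203 and 199 CPM in PM2.5, against 172 and 192 CPM in control, with no overlap. Its log2 fold change of 0.14 missed the threshold (adjusted p = 0.0935). It passed with the replicate number as a block (0.15, adjusted p = 0.0384), with upper quartile scaling (0.19, adjusted p = 0.038) and with library size alone (0.21, adjusted p = 0.0256). Mvk, mevalonate kinase, had a log2 fold change of -0.041 (95% interval -0.18 to 0.10) and Fdps one of -0.062 (-0.23 to 0.10).

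**Figure D4:**
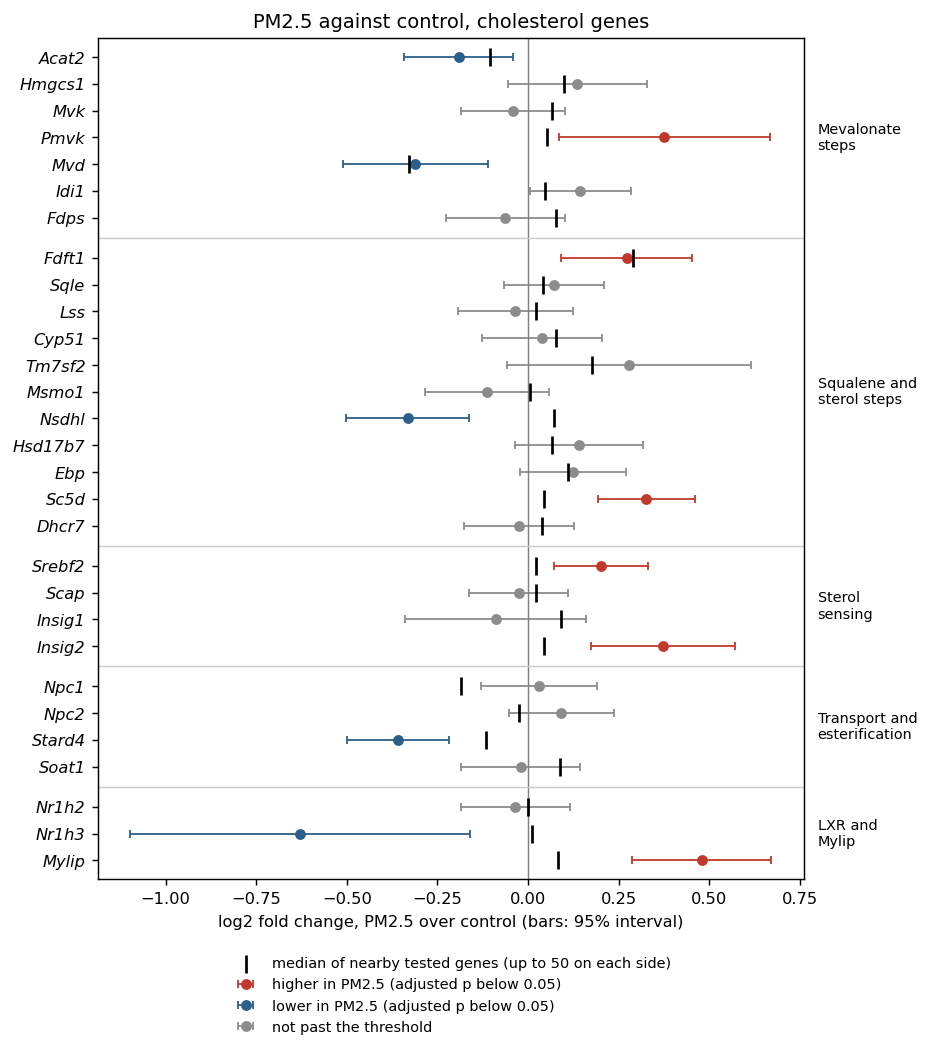
Log2 fold change of PM2.5 over control for each cholesterol gene with its 95% interval (not adjusted for the number of genes), by role. Black ticks give the median log2 fold change of up to 50 tested genes on each side on the same chromosome; Mvd and Fdft1 sit on their ticks, at -0.33 for Mvd and 0.29 for Fdft1, while Mylip, Sc5d, Insig2, Nsdhl and Nr1h3 lie away from theirs.

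Of the 11 squalene and sterol steps, Sc5d and Fdft1 were higher and Nsdhl lower. Sc5d, the lathosterol oxidase that places a double bond late in the route (ENSMUSG00000032018, chromosome 9, 42162891 to 42175552, minus strand), had 157 and 162 CPM in PM2.5, against 122 and 132 CPM in control. Both PM2.5 libraries lay above both controls, 1.255-fold higher (log2 fold change 0.33, SE 0.06, adjusted p = 0.0019). Nsdhl, which takes part in removing the C4 methyl groups (ENSMUSG00000031349, chromosome X, 71962163 to 72002120, plus strand), had 84.5 and 77.7 CPM in PM2.5, against 94.8 and 109 CPM in control. It was 1.26-fold lower with no overlap (log2 fold change -0.33, SE 0.08, adjusted p = 0.0065). Both calls held with each library left out in turn, from 0.27 to 0.38 for Sc5d and from -0.43 to -0.23 for Nsdhl.

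Fdft1, squalene synthase, had 99.1 and 104 CPM in PM2.5, against 76.3 and 91.4 CPM in control (log2 fold change 0.27, SE 0.08, adjusted p = 0.0222). Without control replicate 1 it was 0.15 (adjusted p = 0.12), and the call also ended without PM2.5 replicate 2 (adjusted p = 0.0989). It lies on chromosome 14 (63382599 to 63417027, minus strand), where neighbouring genes had a median log2 fold change of 0.29, and set against them its own was -0.017 (adjusted p = 0.89). Its span overlaps Ctsb on the opposite strand by 774 bases, and Ctsb had 11776 and 10780 counts in PM2.5 and 6217 and 9219 in control. Strand use in counting is not stated in the labels, so reads of the overlap may not be separated.

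The remaining 8 genes of these steps did not pass the test. Sqle had 224 and 238 CPM in PM2.5, against 209 and 229 CPM in control, with a log2 fold change of 0.072 (95% interval -0.067 to 0.21). Cyp51, the lanosterol demethylase, was at 0.040 (-0.13 to 0.21), the lanosterol synthase gene Lss at -0.035 (-0.19 to 0.12), and Dhcr7, the last reductase of the route, at -0.024 (-0.18 to 0.13). These 4 missed the threshold under every alternative run, as did Tm7sf2, whose interval was the widest of the members not called (0.28, -0.058 to 0.62). Msmo1, the C4 methyl oxidase, was at -0.11 (-0.28 to 0.059), the ketosteroid reductase gene Hsd17b7 at 0.14 (-0.035 to 0.32) and the sterol isomerase gene Ebp at 0.12 (-0.023 to 0.27). The span of Tm7sf2 overlaps Vps51 on the same strand by 532 bases, so its counts are uncertain.

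In the sensing group, Srebf2 and Insig2 were higher while Scap and Insig1 did not pass. Insig2 (ENSMUSG00000003721, chromosome 1, 121232082 to 121260318, minus strand), a second retention factor for SCAP, had 66.9 and 77.7 CPM in PM2.5, against 51.6 and 59.6 CPM in control. That was 1.29-fold higher (log2 fold change 0.37, SE 0.09, adjusted p = 0.0077), and without PM2.5 replicate 2 it was 0.26 (adjusted p = 0.0712). Its span overlaps the predicted gene Gm37174 on the opposite strand, which had 125 and 134 counts in PM2.5 and 68 and 131 in control. Srebf2, which encodes SREBP2, had 327 and 351 CPM in PM2.5, against 288 and 301 CPM in control, 1.15-fold higher with no overlap (log2 fold change 0.20, SE 0.06, adjusted p = 0.0192). The call on Srebf2 ended without control replicate 1 (0.16, adjusted p = 0.0603) and without PM2.5 replicate 2 (0.15, adjusted p = 0.22), and on the total gene reads (0.13, adjusted p = 0.0877). Gm49502, which overlaps Srebf2 on the same strand, had 109 and 60 counts in PM2.5 and 45 and 94 in control. Scap had 117 and 115 CPM in PM2.5, against 123 and 113 CPM in control, with a log2 fold change of -0.025 (95% interval -0.16 to 0.11).

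Promoter sequence was looked up for the members, because SREBP acts at sterol regulatory elements beside a CCAAT box bound by NF-Y. Windows from 250 bases before to 50 after the gene start were taken from RefSeq on GRCm38.p6, a different build from that of the counts, and 24 of 29 members matched. Not among the windows were Sqle, Fdft1, Fdps, Stard4 and Npc1. The motif TCACNCCAC, on either strand, was found in 1 of the 24, Hmgcs1, and in 1.44% of all 27025 genes with a window. No mismatch was allowed, so a window without a match cannot be read as lacking a sterol regulatory element. CCAAT on either strand was found in 20 of the 24, or 83.3%, and in 41.1% of all genes, counting a gene if any of its windows matched. Of all windows, 37.41% held it. Dhcr7, Insig2 and Pmvk have several windows and matched in only 1 each, and which start these cells use was not tested. The 2 motifs share no bases in the windows shown. A match is a description and not a site, and CCAAT was present in members that were higher, lower and not called. The 250 bases before the start, read along the gene's strand, are given for Hmgcs1, which holds both motifs, for the Insig1 and Insig2 pair, which had log2 fold changes of -0.090 and 0.37, for Srebf2 and Mylip, which were higher, and for Nsdhl, which was lower. Capitals mark the motif letters, with ATTGG being CCAAT on the opposite strand. The windows are chr13:119690101-119690350, plus strand, for Hmgcs1, chr5:28071162-28071411, plus strand, for Insig1, chr1:121332590-121332839, minus strand, for Insig2 (the 1 of its 3 windows with a match), chr15:82147019-82147268, plus strand, for Srebf2, chr13:45389492-45389741, plus strand, for Mylip, and chrX:72918271-72918520, plus strand, for Nsdhl.
Hmgcs1: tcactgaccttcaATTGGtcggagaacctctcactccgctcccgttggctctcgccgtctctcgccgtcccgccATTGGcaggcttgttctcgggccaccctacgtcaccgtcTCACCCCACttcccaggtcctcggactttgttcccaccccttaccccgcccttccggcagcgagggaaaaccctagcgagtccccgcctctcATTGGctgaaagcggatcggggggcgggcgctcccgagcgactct
Insig1: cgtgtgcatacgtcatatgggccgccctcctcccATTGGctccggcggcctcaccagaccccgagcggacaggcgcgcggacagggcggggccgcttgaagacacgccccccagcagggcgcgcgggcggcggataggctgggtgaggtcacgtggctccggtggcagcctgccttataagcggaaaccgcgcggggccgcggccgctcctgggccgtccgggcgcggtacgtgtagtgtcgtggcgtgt
Insig2: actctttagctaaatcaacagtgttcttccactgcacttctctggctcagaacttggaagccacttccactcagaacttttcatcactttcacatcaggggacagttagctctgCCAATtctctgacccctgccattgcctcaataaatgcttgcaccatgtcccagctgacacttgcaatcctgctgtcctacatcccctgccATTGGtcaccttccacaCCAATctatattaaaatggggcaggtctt
Srebf2: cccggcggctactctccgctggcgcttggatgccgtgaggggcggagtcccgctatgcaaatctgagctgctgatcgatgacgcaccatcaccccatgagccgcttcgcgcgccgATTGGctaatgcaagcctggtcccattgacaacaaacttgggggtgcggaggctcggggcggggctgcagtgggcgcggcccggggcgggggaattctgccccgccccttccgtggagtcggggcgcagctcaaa
Mylip: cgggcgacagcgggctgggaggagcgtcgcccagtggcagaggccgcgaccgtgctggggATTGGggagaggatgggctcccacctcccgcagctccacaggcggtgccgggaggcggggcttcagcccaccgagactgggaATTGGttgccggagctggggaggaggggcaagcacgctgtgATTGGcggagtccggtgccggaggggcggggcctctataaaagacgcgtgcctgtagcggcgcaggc
Nsdhl: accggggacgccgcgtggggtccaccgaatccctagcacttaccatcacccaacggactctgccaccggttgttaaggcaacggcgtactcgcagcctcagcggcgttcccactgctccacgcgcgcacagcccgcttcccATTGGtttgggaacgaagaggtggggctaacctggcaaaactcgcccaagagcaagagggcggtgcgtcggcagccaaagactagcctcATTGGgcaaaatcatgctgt

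Of the 4 transport and storage genes, Stard4 was lower and the others did not pass. Stard4, a soluble sterol carrier (ENSMUSG00000024378, chromosome 18, 33332408 to 33346915, minus strand), had 92.1 and 97.7 CPM in PM2.5, against 117 and 126 CPM in control. It was 1.28-fold lower with no overlap (log2 fold change -0.36, SE 0.06, adjusted p = 0.0015), and from -0.42 to -0.31 with each library left out. Its neighbours on the chromosome had a median of -0.12, and set against them its own log2 fold change was -0.24 (adjusted p = 0.0152). Npc1, the lysosomal membrane exporter, had 50.2 and 51.9 CPM in PM2.5, against 47.5 and 52.1 CPM in control. Its log2 fold change was 0.031 (95% interval -0.13 to 0.19), and 0.21 (adjusted p = 0.0439) when set against its neighbours, whose median was -0.18. Npc2, the soluble partner that hands cholesterol to NPC1, had 183 CPM in each PM2.5 library, against 161 and 182 CPM in control (log2 fold change 0.092, -0.052 to 0.24). Soat1, the esterifying enzyme, had 73.9 and 72.0 CPM in PM2.5, against 68.8 and 78.8 CPM in control (-0.020, -0.18 to 0.14).

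In the last group, Mylip was higher, Nr1h3 lower and Nr1h2 not called. Mylip (ENSMUSG00000038175, chromosome 13, 45543218 to 45565498, plus strand), a direct LXR target in other cells, had 36.8 and 37.8 CPM in PM2.5, against 24.9 and 28.4 CPM in control. It was 1.4-fold higher with no overlap (log2 fold change 0.48, SE 0.09, adjusted p = 0.0016), the largest rise of the 29, and from 0.39 to 0.58 with each library left out. Nr1h3, which encodes LXR alpha (chromosome 2, 91014406 to 91033179, minus strand), had 2.52 and 2.64 CPM in PM2.5, against 3.52 and 4.34 CPM in control. Its log2 fold change of -0.63 (SE 0.21, adjusted p = 0.037) ended as a call without control replicate 2 (-0.46, adjusted p = 0.22) and without either PM2.5 library (adjusted p = 0.14 and 0.11). Of the total gene reads of Nr1h3, 82.3% and 83.5% in PM2.5 and 75.5% and 73.4% in control lay outside the counts used here. On the total gene reads its log2 fold change was -0.077 (adjusted p = 0.63). The call on Nr1h3 ended under 8 of 17 alternatives in all, among them DESeq2 (-0.62, adjusted p = 0.19), limma-voom and library size alone. Nr1h2, which encodes LXR beta, had 62.1 and 67.0 CPM in PM2.5, against 64.4 and 67.7 CPM in control (log2 fold change -0.035, 95% interval -0.18 to 0.11).

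Other settings moved the counts as well. Without the filter on low counts 7 of the 29 were called, 3 of them higher, beside 24.0% of all genes called and 10.6% higher. The number lower was 3 with upper quartile scaling, 2 with library size alone, and 3 each with DESeq2, with the correction for neighbouring genes, and with limma on RPKM at a pseudocount of 0.1 or 1. The shares of all genes lower under these settings were 16.8%, 15.1%, 15.5%, 15.5%, 16.5% and 16.1% in the same order. With library size alone 8 members were higher, beside 24.8% of all genes. With the replicate number as a block 12 were called, the 1 gained being Idi1, beside 46.4% of all genes. Of the 11 calls, those of Sc5d, Nsdhl, Stard4 and Mylip stayed past the threshold under all 17 alternatives that gave a fold change, and the other 7 were lost under at least 1. Of the 18 members not called, 9 passed under at least 1 alternative and 9 under none, namely Sqle, Lss, Cyp51, Dhcr7, Mvk, Tm7sf2, Scap, Nr1h2 and Soat1.

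Genes next to the pathway, in 6 lists, had a median log2 fold change of 0.10, beside 0.0062 over all genes. Of their 62 genes 55 were tested, and 19 were higher and 9 lower, or 50.9% called, beside 39.6% of all genes, 19.2% higher and 20.4% lower. The lists were chosen with earlier results of these data known, so an excess of calls in any of them was not tested. Among sterol transfer and lysosomal genes, 6 of 13 were higher and 1 lower, where 19.2% of all genes were higher and 20.4% lower. Lipa, the acid lipase that frees cholesterol from lipoprotein esters in the lysosome, had 205 and 206 CPM in PM2.5, against 77.0 and 76.7 CPM in control, 2.68-fold higher (log2 fold change 1.42, SE 0.06, adjusted p = 8.092e-08). Osbp, an oxysterol-binding lipid exchanger, had 136 CPM in each PM2.5 library, against 105 CPM in each control library, and Tmem97, an NPC1-binding protein, had 96.3 and 84.1 CPM in PM2.5, against 134 and 121 CPM in control. The call on Osbp ended when it was set against its neighbours on the chromosome (log2 fold change 0.11, adjusted p = 0.17). Leaving out PM2.5 replicate 1 or 2 put the number higher in this list at 3, beside 13.7% of all genes higher without replicate 1 and 11.7% without replicate 2.

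Of 9 tested LXR and RXR targets and partners, 4 were higher and 3 lower, or 77.8% called, beside 39.6% of all genes. Abca1, the cholesterol exporter and an LXR target, had 35.3 and 41.1 CPM in PM2.5, against 13.3 and 19.4 CPM in control, 2.3-fold higher (log2 fold change 1.20, SE 0.14, adjusted p = 1.197e-04). Srebf1, another LXR target that encodes SREBP1, had 77.9 and 90.2 CPM in PM2.5, against 133 and 132 CPM in control, 1.57-fold lower (log2 fold change -0.65, adjusted p = 7.258e-05). Nr1h4, the bile acid receptor gene, had 4.02 and 3.69 CPM in PM2.5, against 1.21 and 1.16 CPM in control. Abcg1, another exporter, was not tested, with 13 counts over both PM2.5 libraries and 3 over both controls. Of the LXR targets named here, Abca1 and Mylip were higher and Srebf1 lower. Lpcat3, of the same list, did not pass (log2 fold change 0.11, adjusted p = 0.25). LXR activity was not tested. Without PM2.5 replicate 2 or control replicate 2, the number higher in this list was 2, beside 11.7% and 17.7% of all genes.

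Of 11 genes of SREBP processing and sterol-regulated degradation, 4 were higher and 2 lower, or 54.5% called, beside 39.6% of all genes. Besides Srebf1, the smallest p-values were those of Syvn1, a ubiquitin ligase of the endoplasmic reticulum, with 109 CPM in each PM2.5 library against 82.0 and 83.3 CPM in control, and Mbtps1, the protease that first cuts SREBP, with 213 and 226 CPM in PM2.5 against 287 and 284 CPM in control. Mbtps1 lies in the same lowered stretch of chromosome 8 as other genes, with a neighbour median of -0.36, and set against it its log2 fold change was -0.024 (adjusted p = 0.78). In this list 1 was higher and 1 lower when set against neighbours, beside 16.1% and 15.5% of all genes, and 2 were higher without PM2.5 replicate 1, beside 13.7%.

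In the 6 tested uptake receptor genes, Lrpap1 and Sorl1 were higher and Lrp8 lower, 3 of 6, beside 39.6% of all genes called. Lrpap1, the receptor chaperone, had 60.1 and 63.0 CPM in PM2.5, against 47.3 and 47.6 CPM in control, and Sorl1, a sorting receptor, had 1.55 and 1.63 CPM in PM2.5, against 0.579 and 0.621 CPM in control. The call on Sorl1 ended without PM2.5 replicate 2 (adjusted p = 0.0508). Without control replicate 1, 2 genes of this list were lower, beside 17.6% of all genes. Lrp8 had 94.2 and 95.1 CPM in PM2.5, against 111 and 121 CPM in control, and set against its neighbours its log2 fold change was 0.011 (adjusted p = 0.91). Of 12 isoprenoid branch genes, 1 was higher and 3 lower, or 33.3% called, near the 39.6% of all genes. Fntb, the farnesyltransferase beta subunit, had 28.6 and 30.4 CPM in PM2.5, against 39.5 and 36.5 CPM in control. Pdss2, of coenzyme Q synthesis, had 13.8 and 11.6 CPM in PM2.5, against 18.46 and 17.7 CPM in control, and its call ended without PM2.5 replicate 2 (adjusted p = 0.0571). Coq2, also of coenzyme Q synthesis, had 29.4 and 30.8 CPM in PM2.5, against 21.5 and 25.1 CPM in control, and its call ended with control replicate 1 left out (0.26, adjusted p = 0.0541) and with PM2.5 replicate 2 left out (0.33, adjusted p = 0.0627).

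Of 5 tested genes of sterol modification, Pgrmc1 and Ebpl were higher and the others did not pass, or 40.0% called, near the 39.6% of all genes. Pgrmc1, a heme-binding partner of sterol enzymes, had 173 and 189 CPM in PM2.5, against 122 and 121 CPM in control. Ebpl had 5.38 and 6.38 CPM in PM2.5, against 3.73 and 4.07 CPM in control, and its call ended without control replicate 1 (0.52, adjusted p = 0.0731), without PM2.5 replicate 2 (0.45, adjusted p = 0.18) and against its neighbours (0.29, adjusted p = 0.23). The oxysterol enzymes Ch25h, Cyp27a1 and Cyp7b1 were not tested. Cyp7b1 had 0 counts in every library. Over both libraries of a group, Ch25h had 4 counts in PM2.5 and 0 in control, and Cyp27a1 had 3 in PM2.5 and 8 in control.

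**Figure D5:**
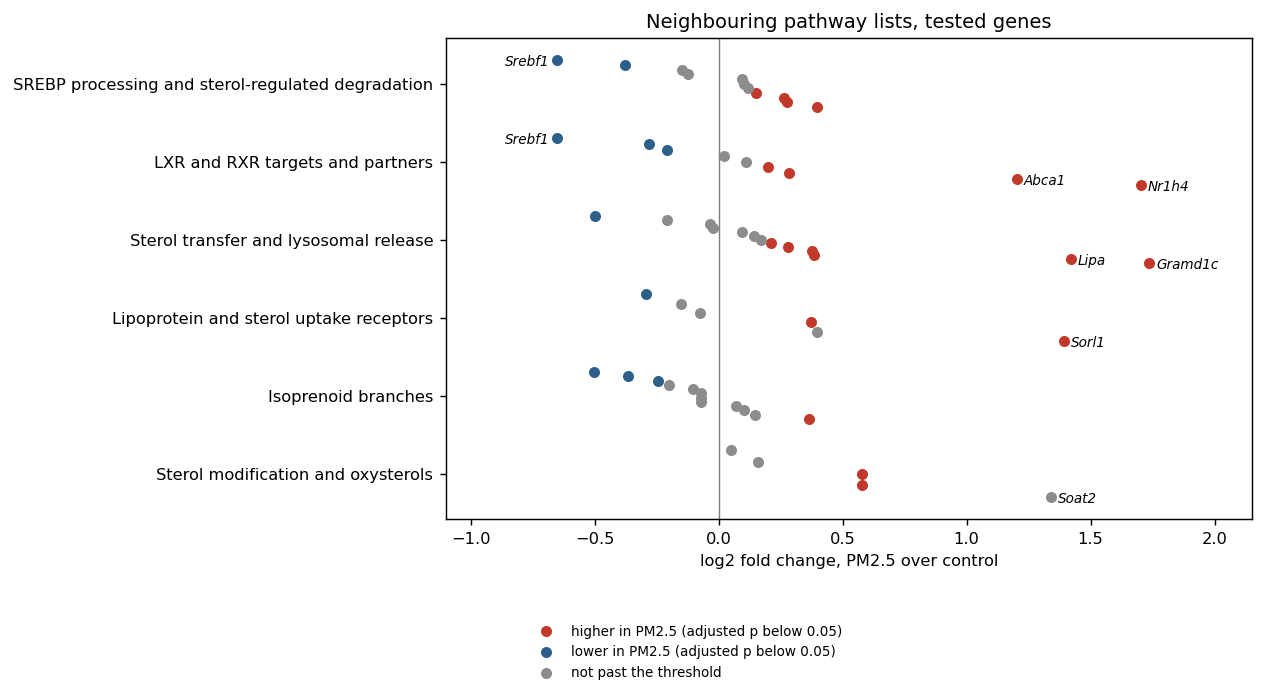
Log2 fold change of PM2.5 over control for each tested gene of the 6 neighbouring lists, coloured by whether it was higher, lower or not past the threshold. Gramd1c (1.74), Nr1h4 (1.70), Lipa (1.42), Sorl1 (1.39) and Abca1 (1.20) lie far to the right, and Srebf1 (-0.65) farthest to the left; Soat2 (1.34) is not called.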

How the data were processed

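The 29 members and the neighbouring lists were chosen with earlier results of these data known. Libraries were made with a stranded mRNA kit from 750 ng of RNA, per the labels' protocols. The deposited raw counts per gene are not normalized. The authors also deposited RPKM values and total gene reads, a count never below the raw count that the deposit does not define. The submitters' processing notes name the GRCm39 build. Not given in the sources used here: the aligner, the counter and its use of strand.

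Counts of all 4 libraries were fitted with edgeR 4.0.16 in R 4.3.3 (filterByExpr, TMM, quasi-likelihood F test, unpaired, Benjamini-Hochberg over 12478 genes, threshold 0.05). CPM are TMM scaled. SE is the size of the log2 change divided by F's square root, and 95% intervals use its t quantile. Positional correction added the median log2 fold change of up to 50 tested genes on each side as an offset. DESeq2 1.42.0 and limma 3.58.1 were alternatives, with other scalings, filters, counts and left-out libraries. The fit was also run on simulated counts with known fold changes, without a shared gap between replicates such as that between the controls. Its outcome is not used here. All members were named, and from each list the 3 called genes with the smallest p-values. Abcg1, Lpcat3, Ch25h, Cyp27a1, Cyp7b1, Soat2, Gramd1c and Scp2 were named after their values were seen. Of the neighbouring lists, 2 genes are not reported here.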

Additional observations from a re-analysis of the deposited data

How the results depend on the processing

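From 11 members called (6 higher, 5 lower), no filter gave 7, with 3 higher. The number lower was 3 with upper quartile scaling, DESeq2, limma-trend on log2(RPKM + 0.1) or log2(RPKM + 1) and positional correction, and 2 with library size only, where the median log2 fold change of all genes was 0.069. A minimum change of 1.5-fold called 0 members, 3 genes of the neighbouring lists and 513 genes in all (401 higher, 112 lower), and DESeq2 called 1581 of all genes higher. Leaving out 1 library gave 5 to 12 members called, 2 to 10 higher and 2 to 8 lower, with a member median of -0.034 to 0.13. It gave 17 to 26 genes of the neighbouring lists and 3110 to 4842 of all genes (1492 to 2267 higher, 1618 to 2575 lower). The cause of these moves was not tested.

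With the positional correction, log2 fold changes turned to -0.017 for Fdft1, 0.018 for Mvd and 0.011 for Lrp8, none past the threshold, and to 0.25 for Scp2 (adjusted p = 0.0178). Same-numbered libraries deviated together with a correlation of 0.124 over genes, but the labels tie no numbers to a shared culture, and the library names number the PM2.5 libraries differently from the titles used here, so the numbers may pair nothing. The replicate block, which takes the replicate number as a pair, called 12 members (Idi1 was gained), 30 genes of the neighbouring lists and 5793 genes in all. The legacy quasi-likelihood fit, added after the data were seen, changed no member's call. Depth limits Nr1h3 most, with 50 to 112 counts a library.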
